A study of Mus musculus with 18 samples.

Results

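Oxidative phosphorylation is carried out in the inner mitochondrial membrane by 4 respiratory complexes and the ATP synthase. The genes described here are the nuclear genes of complex I, complex III, complex IV and the ATP synthase, followed through splenic conventional dendritic cells (cDC) with and without ADAM10. Members were all genes whose symbol begins with Nduf, Uqcr, Cox4 to Cox8 or Atp5, without processed copies marked "-ps". This gave 91 gene identifiers (90 symbols, since Atp5o has a second identifier) of 24614 genes in all. They comprise 7 core subunits, 32 accessory subunits and 8 assembly factors of complex I, 8 genes of complex III, 13 general and 5 tissue-restricted genes of complex IV, 5 genes of the F1 part of the ATP synthase, and 13 of its Fo part, stalk and supernumerary subunits. Of the 91, 86 passed the filter on low counts, and 5 did not (Ndufa11b, Ndufs6b, Cox4i2, Cox7a1 and Ndufa4l2). The annotation gives 4 members as processed pseudogenes (Ndufa11b, Ndufb4c, Ndufs6b and Cox6c2). Those named Nduf are held among the accessory subunits of complex I, and Cox6c2 among the general complex IV genes. The counts and sums by complex below include them.

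The 18 libraries came from spleens of C57BL/6 mice and form 6 groups of 3: ADAM10 knockout (KO) and wild-type (WT) CD4+ cDC2, CD8-CD4- cDC2 (written CD4- here) and CD8+ cDC1. All cells were sorted alive as CD11c+MHCII+ after digestion of the spleen and magnetic enrichment of CD11c+ cells. ADAM10 is a protease of the cell surface that sheds many membrane proteins and makes the ligand-dependent cut of Notch, and the series is about its role in the homeostasis of antigen-presenting cells in the marginal zone. How Adam10 was removed, in which cells, and the age of the animals are not given in the sources used here. The labels number the libraries of a group 1 to 3 and do not tie them to animals. The p-values therefore reflect how far libraries of a group lie apart, and some or all of that spread may be technical.

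Complex I takes electrons from NADH, complex III passes them on to cytochrome c, and complex IV hands them to oxygen. The proton gradient that these complexes build drives the ATP synthase. Most subunits are made from nuclear genes and assembled with a few mitochondrially encoded ones. In dendritic cells, respiration is known as a main source of ATP at rest, and strong Toll-like receptor stimulation is known to shift the cells towards glycolysis.

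Totals of estimated counts were 12342015 to 19533254 per library. Adam10 itself had 28.7 to 47.5 CPM (estimated counts scaled to a common library total) in the 9 KO libraries, against 57.0 to 138 CPM in the 9 WT libraries, and fell in each population (log2 fold change -1.18 in CD4+, -1.25 in CD4- and -1.15 in CD8+ cells, adjusted p = 5e-04, 0.000552 and 0.00187, edgeR's quasi-likelihood test). Summed CPM of 8 cDC1 markers were 6500 to 6850 in KO CD8+ and 5320 to 6470 in WT CD8+ libraries, and at most 1250 in every other library. Summed cDC2 markers were 31.4 to 49.2 CPM in KO CD8+ and 131 to 190 CPM in WT CD8+ libraries, and 1100 to 2290 CPM in the others. The cDC1 sum differed with genotype in cDC2. It was 385 to 501 CPM in KO CD4+ and 259 to 295 CPM in WT CD4+ libraries. In CD4- libraries it was 860 to 1250 CPM in KO and 586 to 716 CPM in WT. Other marker lists moved with genotype as well. All 6 monocyte markers were detected, and their sum was 11900 to 15600 CPM in KO CD4+, 8050 to 10800 in KO CD4- and 1540 to 1760 in KO CD8+ libraries, against 2210 to 2610, 2150 to 2480 and 424 to 536 CPM in the WT libraries of the same populations. The sum of 5 NK cell markers was 19.8 to 49.9 CPM in KO CD4- and 183 to 477 CPM in WT CD4- libraries, and that of 5 T cell markers 6.06 to 27.1 CPM in KO CD4- and 54.8 to 138 CPM in WT CD4- libraries. The sum of 9 red pulp macrophage markers was 1110 to 1230 CPM in KO CD4+, 486 to 587 in KO CD4- and 49.5 to 75 in KO CD8+ libraries, against 586 to 669, 302 to 389 and 82.6 to 111 CPM in WT. The sum of 5 erythroid markers was 71.9 to 249 CPM in KO CD4+, 35 to 213 in KO CD4- and 155 to 300 in KO CD8+ libraries, against 18.2 to 46.6, 33.3 to 68.2 and 62.8 to 80.5 CPM in WT, and overlapped between genotypes only in CD4- cells. All 5 neutrophil markers stayed below 1 CPM in every library. Single markers did not all follow these sums (adjusted p under 0.05, edgeR's quasi-likelihood test). All 6 monocyte markers rose in KO CD4+ and in KO CD4- cells. In KO CD8+ cells 2 rose (Ccr2 and Lyz2) and 1 fell (Csf1r). Of the 9 red pulp macrophage markers, 7 rose and 1 fell in KO CD4+, and 3 rose and 1 fell in KO CD4- cells. In KO CD8+ cells 0 rose and 3 fell, and Spic fell in all 3 populations. In bulk libraries, a change in the number of cells of a type and a change in RNA per cell cannot be told apart, and the part of these other cells in the results below was not tested. Ribosomal protein genes took 10.8%, 10.8% and 11.4% of counts in KO CD4+, CD4- and CD8+ libraries on average, against 9.52%, 8.85% and 9.54% in WT. Library 3 of KO CD8+ cells stood apart for many members (described with the spread within groups), so values without it are also given for the members called in KO CD8+ cells, for Cox5a and for Cox6b2.

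Levels are first given per length, as the TPM the authors deposited, which are scaled so that each library has the same total. The 39 subunit genes of complex I summed to 3347, 3594 and 3113 TPM in KO CD4+ cells, against 3407, 3565 and 3326 TPM in WT CD4+ cells, and these ranges overlapped. In CD4- cells the sum was 3489, 3153 and 3139 TPM in KO and 3652, 3675 and 3656 TPM in WT, with no overlap. In CD8+ cells it was 3689, 3261 and 3118 TPM in KO and 3725, 3673 and 3466 TPM in WT, again overlapping. Complex I genes thus stood within a narrow band of TPM in all 6 groups.

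The 18 genes of complex IV summed to 5286 ± 116.3 TPM in KO CD4+ and 5906 ± 202.2 TPM in WT CD4+ cells (SD, n = 3 each). They summed to 5207 ± 274 TPM in KO CD4- and 5904 ± 66.28 TPM in WT CD4- cells, and to 6247 ± 507.2 TPM in KO CD8+ and 6215 ± 252.3 TPM in WT CD8+ cells. The KO and WT libraries did not overlap in CD4+ or CD4- cells and overlapped in CD8+ cells. The 18 ATP synthase genes summed to 4432 ± 223 TPM in KO CD4+ and 4925 ± 47.11 TPM in WT CD4+ cells, to 4488 ± 224.4 TPM in KO CD4- and 5244 ± 26.54 TPM in WT CD4- cells, and to 5256 ± 664.1 TPM in KO CD8+ and 5512 ± 156.2 TPM in WT CD8+ cells. The 8 genes of complex III summed to 1004 ± 68.02 TPM in KO CD4+ and 1100 ± 38.88 TPM in WT CD4+ cells, and to 1037 ± 51.49 TPM in KO CD4- and 1174 ± 18.99 TPM in WT CD4- cells. In CD8+ cells they summed to 1174 ± 122.4 TPM in KO and 1220 ± 84.03 TPM in WT. The single most abundant member per length was Cox7b, a small complex IV subunit, with group means of 1315 to 1772 TPM, and Atp5b, the catalytic beta subunit of the ATP synthase, had 481.3 to 859.5 TPM.

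**Figure D1:**
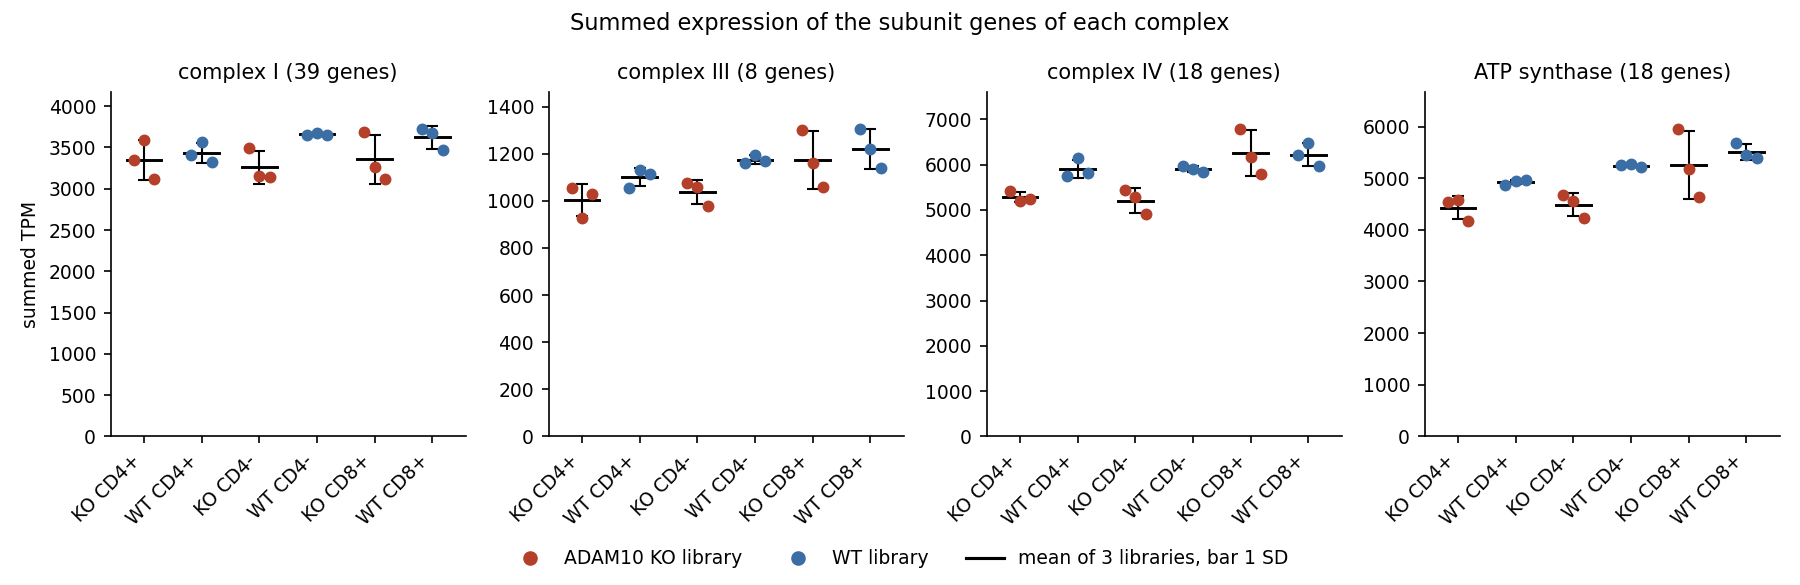
Summed TPM of the members of each complex (vertical axis) in the 6 groups, KO left of WT within each population, with 1 point per library and bars for the mean ± SD of 3 libraries. Complex IV and ATP synthase sums of KO CD4+ and KO CD4- libraries lie below those of their WT libraries, and the KO CD8+ libraries spread over the widest range.

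These lower sums have to be read against all genes on the same scale. On log2(TPM + 1) the median difference over the members was -0.11 in KO minus WT CD4+, -0.18 in CD4- and -0.12 in CD8+ cells, and over all tested genes it was -0.087, -0.18 and -0.13. The members' median therefore differed from that of all genes by -0.027, -0.0003 and 0.0023. On estimated counts scaled by TMM (trimmed mean of M values), the scale of the tests below, the members' median log2 fold change was 0.026 in CD4+, 0.14 in CD4- and 0.066 in CD8+ cells, against 0.016, 0.021 and 0.0027 over all genes. The sign of the members' median thus depended on the scaling in all 3 populations, and its distance from the median of all genes was at most 0.12.

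Without ADAM10, most members kept nearly the same level in each population. Genes count as called here when p, adjusted over all 13381 genes tested, is under 0.05 (edgeR's quasi-likelihood test). In KO CD4+ cells 4 members rose and 5 fell, which is 10.5% of the 86 tested, against 35.1% of all genes. In KO CD4- cells 10 rose and 0 fell (11.6%, against 25.9% of all genes). In KO CD8+ cells 6 rose and 0 fell (6.98%, against 15.7% of all genes). By direction, 18.5%, 14.6% and 6.99% of all genes rose and 16.6%, 11.3% and 8.67% fell in the 3 populations. For the 0 falls, DESeq2's Wald test also called 0 in KO CD4- and in KO CD8+ cells, and 17 and 10 members had an unadjusted p under 0.05 in either direction there. Some other settings, tests on the TPM scale among them, did call falls in both populations, with counts given below.

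Fold changes were small. The log2 fold change lay within 0.5 either way for 83 members in CD4+, 82 in CD4- and 85 in CD8+ cells (96.5%, 95.3% and 98.8%, against 66.7%, 71.5% and 76.4% of all genes). For 62, 54 and 61 members the whole 95% interval lay within 0.5 either way, which is 72.1%, 62.8% and 70.9%, against 35.8%, 40% and 45.2% of all genes. In all, 18 members were called in at least 1 population, 5 in exactly 2 populations with the same direction, 1 in all 3, and 0 in opposite directions. The same overlaps were not counted over all genes, so these numbers are not read as more or fewer than usual. These comparisons use separate libraries for each population.

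The counts of calls moved with single libraries and with the scaling. In KO CD4+ cells the number that rose was 1 without WT CD4+ library 1, without WT CD4+ library 3 or without KO CD4+ library 2, and 10 without KO CD4+ library 3. The number that fell there was 2 without WT CD4+ library 1 or 2 or KO CD4+ library 2 or 3, and 3 without WT CD4+ library 3. In KO CD4- cells 4 rose without WT CD4- library 2 or 3 or KO CD4- library 1. In KO CD8+ cells 14 rose without KO CD8+ library 3, 3 without WT CD8+ library 1, and 2 without each of the other libraries of that comparison. With limma on log2(TPM + 1), 1 member rose in each population and 12, 16 and 4 fell.

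**Figure D2:**
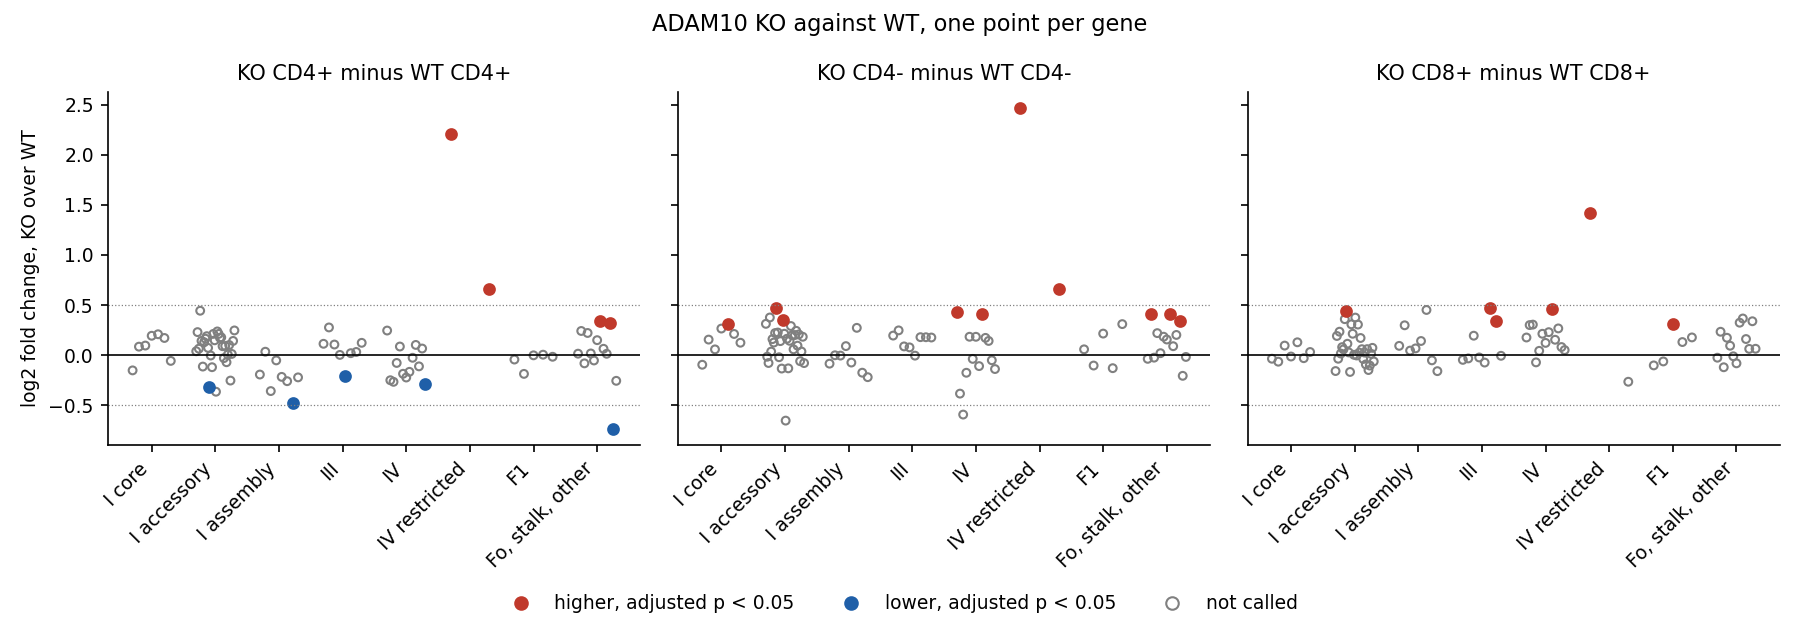
Log2 fold change of KO against WT for each tested member (vertical axis), by role in columns and by population in panels, with filled points for called members. Nearly all members lie within 0.5 of 0, and Cox6a2, a tissue-restricted complex IV gene, lies at 2.21 in CD4+, 2.47 in CD4- and 1.42 in CD8+ cells.

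Complex I held few changes. Of its 7 core subunits, 0 were called in KO CD4+ and KO CD8+ cells, and in KO CD4- cells Ndufs8, which carries iron-sulfur clusters, rose to 78.8 CPM on average, against 63.4 CPM in WT (log2 fold change 0.31, SE 0.095, adjusted p = 0.0221, edgeR's quasi-likelihood test). That rise had the opposite sign on log2(TPM + 1), at -0.044 (limma, adjusted p = 0.733). Ndufs1, an iron-sulfur subunit of the NADH-oxidising arm, averaged 47.1, 50.8 and 55.9 CPM in KO CD4+, CD4- and CD8+ cells, against 52.3, 54.3 and 57.2 CPM in WT, and was not called. Ndufv1, which binds NADH, averaged 90.3, 94.3 and 84.9 CPM in KO, against 80.2, 81.4 and 86.6 CPM in WT, and was not called either.

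Among the 30 accessory subunits tested, Ndufa6 was called in 2 populations. Ndufa6 binds the mitochondrial acyl carrier protein within complex I. It had 128, 121 and 118 CPM in KO CD4- libraries, against 97.4, 86.3 and 80.8 CPM in WT CD4- libraries, so the groups did not overlap (log2 fold change 0.47, SE 0.14, adjusted p = 0.0213, edgeR's quasi-likelihood test). In CD8+ cells it had 158, 150 and 93.5 CPM in KO and 88.9, 106 and 99.5 CPM in WT. The ranges overlapped there, because KO library 3 lay among the WT values (log2 fold change 0.44, adjusted p = 0.0425; without that library 0.65, adjusted p = 0.000159). The KO CD4- call was kept in 3 of 6 fits without 1 library and the KO CD8+ call in 1 of 6, the fit without KO library 3. Ndufb10, of the membrane arm, rose in KO CD4- cells (log2 fold change 0.35, adjusted p = 0.0287, kept in 1 of 6 such fits), and Ndufa8 fell in KO CD4+ cells (56.8 against 70.7 CPM on average, log2 fold change -0.32, adjusted p = 0.0359, kept in 3 of 6). The other accessory subunits were not called.

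Ndufaf7, a methyltransferase that acts in the assembly of complex I, was the 1 assembly factor of 8 called in a KO comparison. It had 21.1, 17.9 and 21.9 CPM in KO CD4+ libraries, against 29.2, 25.3 and 30.6 CPM in WT CD4+ libraries. All KO values lay below all WT values, and the fall kept its call in all 9 alternatives and in all 6 fits without 1 library (log2 fold change -0.48, SE 0.11, adjusted p = 0.00213, highest adjusted p 0.0148). The median log2 fold change of the 8 assembly factors was -0.22 in CD4+, -0.038 in CD4- and 0.081 in CD8+ cells.

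Of the 8 complex III genes, 1 fell in KO CD4+ and 2 rose in KO CD8+ cells. Uqcrc2, one of the core proteins that face the matrix, averaged 144 CPM in KO CD4+ and 167 CPM in WT CD4+ cells (log2 fold change -0.21, SE 0.069, adjusted p = 0.0267, edgeR's quasi-likelihood test). Uqcrh, the hinge protein that holds cytochrome c near the complex, had 197, 169 and 149 CPM in KO CD8+ libraries, against 148, 133 and 126 CPM in WT CD8+ libraries, with no overlap (log2 fold change 0.34, SE 0.11, adjusted p = 0.0384; without KO library 3 0.43, adjusted p = 0.0116). Uqcrfs1, the Rieske iron-sulfur protein, had 209, 188 and 128 CPM in KO CD8+ and 134, 125 and 119 CPM in WT CD8+ libraries. Its ranges overlapped through KO library 3 (log2 fold change 0.47, adjusted p = 0.0369; without that library 0.65, adjusted p = 0.00103). Of the 6 fits without 1 library, the call of Uqcrfs1 was kept in 1, that without KO library 3, the call of Uqcrh in 2 and that of Uqcrc2 in 2. Uqcrc1, the other core protein, had log2 fold changes of 0.0031, 0.078 and -0.022 and was not called.

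Among the 13 general genes of complex IV, Cox7a2l was the member called with the smallest adjusted p in KO CD4- and KO CD8+ cells. Cox7a2l, also called SCAF1, links complexes III and IV into supercomplexes, and C57BL/6 mice are known to carry a shortened, unstable form of the protein. It had 513, 570 and 537 CPM in KO CD4- libraries, against 429, 405 and 387 CPM in WT CD4- libraries (log2 fold change 0.41, SE 0.074, adjusted p = 0.000643, edgeR's quasi-likelihood test). In CD8+ cells it had 548, 610 and 550 CPM in KO and 441, 386 and 417 CPM in WT (log2 fold change 0.46, SE 0.074, adjusted p = 0.000358; without KO library 3 0.48, adjusted p = 0.000774). In CD4+ cells the values overlapped, with 563, 510 and 557 CPM in KO and 546, 577 and 536 CPM in WT. WT CD4+ cells thus held the gene near the level that KO cells had in all 3 populations, and WT CD4- and WT CD8+ cells lay below it. The calls in CD4- and CD8+ cells held without any 1 library but not on the TPM scale (limma, log2(TPM + 1) and log2(TPM + 0.1)).

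Cox4i1, the largest nuclear-encoded subunit of complex IV, had 508, 507 and 505 CPM in KO CD4- libraries, against 389, 386 and 352 CPM in WT CD4- libraries (log2 fold change 0.43, SE 0.10, adjusted p = 0.0058, edgeR's quasi-likelihood test). This call too was lost on the TPM scale only. Ndufa4, first assigned to complex I and now known as a complex IV subunit, had 87.3, 86.5 and 84.9 CPM in KO CD4+ and 101, 109 and 106 CPM in WT CD4+ libraries. The groups did not overlap, but the call (log2 fold change -0.29, SE 0.11, adjusted p = 0.0451) was lost in each of the 6 fits without 1 library. Cox5a, a subunit that faces the matrix, had log2 fold changes of -0.25, -0.38 and 0.30 and was not called, but without KO CD8+ library 3 it was called higher in KO CD8+ cells (0.53, adjusted p = 0.0268).

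The tissue-restricted isoforms stood apart from the rest of complex IV. Cox6a2 is the isoform known from heart and skeletal muscle of a subunit whose general form is Cox6a1, and it was the only member called in the same direction in all 3 populations. It had 17.5, 27.4 and 25.1 CPM in KO CD4+ libraries, against 7.19, 4.01 and 3.94 CPM in WT CD4+ libraries. It had 16.1, 14.3 and 17.3 CPM in KO CD4- libraries, against 3.93, 1.83 and 2.78 CPM in WT CD4- libraries. It had 8.61, 4.18 and 6.69 CPM in KO CD8+ libraries, against 2.48, 1.86 and 2.95 CPM in WT CD8+ libraries. Every KO library lay above every WT library of its population, by 4.62-fold, 5.52-fold and 2.68-fold on the means. The log2 fold changes were 2.21 (SE 0.29, adjusted p = 1.4e-05), 2.47 (SE 0.31, adjusted p = 2.05e-05) and 1.42 (SE 0.32, adjusted p = 0.00578) by edgeR's quasi-likelihood test. All 3 calls were kept in all 9 alternatives and in every fit without 1 library (1.401 in KO CD8+ cells without library 3, adjusted p = 0.0157).

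Cox6a1 had 143, 234 and 145 CPM in KO CD4+ and 179, 190 and 182 CPM in WT CD4+ libraries, and was not called in any population. Per length, Cox6a2 made up 10.3% ± 1.55 of the summed TPM of Cox6a1 and Cox6a2 in KO CD4+ and 2.26% ± 0.889 in WT CD4+ cells (SD, n = 3 each). Its share was 8.3% ± 1.53 in KO CD4- and 1.41% ± 0.47 in WT CD4- cells, and 3.28% ± 1.92 in KO CD8+ and 1.06% ± 0.265 in WT CD8+ cells. The muscle isoform therefore remained the minor form in every group.

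The 2 coding sequences show how far the isoforms can be told apart by reads. Cox6a2 (chr7:128205435-128206387, minus strand, GRCm38) codes for 97 residues in 294 bases including the stop codon, and Cox6a1 (chr5:115345642-115348981, minus strand) for 112 residues in 339 bases, of which bases 40 to 339 are shown. Over 290 aligned bases, 193 (66.6%) were identical, and the longest run they share, in capitals, had 12 bases, against a read length of 59 bases.
Cox6a2: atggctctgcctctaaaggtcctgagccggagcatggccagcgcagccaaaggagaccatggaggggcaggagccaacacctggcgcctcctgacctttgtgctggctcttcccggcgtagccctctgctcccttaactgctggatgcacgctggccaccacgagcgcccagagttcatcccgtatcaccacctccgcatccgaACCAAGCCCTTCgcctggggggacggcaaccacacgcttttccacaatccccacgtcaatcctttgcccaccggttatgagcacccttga
Cox6a1: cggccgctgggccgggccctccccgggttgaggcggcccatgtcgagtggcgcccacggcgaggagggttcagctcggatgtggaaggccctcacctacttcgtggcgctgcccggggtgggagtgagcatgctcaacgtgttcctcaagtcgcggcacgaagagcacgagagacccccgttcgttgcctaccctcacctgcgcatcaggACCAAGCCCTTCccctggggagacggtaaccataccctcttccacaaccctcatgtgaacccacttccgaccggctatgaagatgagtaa

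Cox6a2 lies on the opposite strand within Itgad, an integrin gene (chr7:128154376-128223816, plus strand), and 70 exon bases are shared. The sources do not state that strand was used in counting, so reads from that overlap cannot be told apart. Itgad rose in KO CD4+ cells (log2 fold change 0.99, adjusted p = 0.0111, edgeR's quasi-likelihood test), fell in KO CD4- cells (-1.06, adjusted p = 0.00667) and was at -0.22 in KO CD8+ cells (adjusted p = 0.73). It had 21.6, 14.8 and 21.7 CPM in KO CD4- and 46.3, 23.6 and 51.5 CPM in WT CD4- libraries. Cox6a2 thus rose together with Itgad in KO CD4+ cells, and rose while Itgad fell in KO CD4- cells. The part of the shared bases in the Cox6a2 difference was not tested.

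Cox6a2 transcripts are also known from plasmacytoid dendritic cells (pDC) of the mouse. All 5 pDC markers were detected, none below 1 CPM in all libraries. Their sum was 277 to 354 CPM in KO CD4+, 331 to 411 in KO CD4- and 202 to 251 in KO CD8+ libraries, against 212 to 251, 199 to 273 and 301 to 410 CPM in the WT libraries. The sum was thus higher in KO than in WT in both cDC2 populations and lower in CD8+ cells, where Cox6a2 was higher in KO. Single pDC markers differed from each other. Bst2 rose in KO CD4+ and KO CD4- cells (log2 fold change 0.67 and 0.73, adjusted p = 0.000593 and 0.000437, edgeR's quasi-likelihood test), Tcf4 rose in KO CD4+ cells (0.57, adjusted p = 0.0442) and Ccr9 in KO CD4- cells (0.51, adjusted p = 0.0358). Siglech was at 0.12 in KO CD4+ and -0.052 in KO CD4- cells and Ly6d at -0.0018 and -0.28, and neither was called. In KO CD8+ cells Siglech, Tcf4 and Bst2 fell (-1.03, -1.11 and -0.41, adjusted p = 0.0178, 0.00163 and 0.0394). The part of pDC in the Cox6a2 difference was not tested beyond these values.

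Cox6b2, the testis isoform of a subunit whose general form is Cox6b1, was rare in all groups. It had 4.31, 5.87 and 4.01 CPM in KO CD4+ and 2.78, 3.35 and 2.87 CPM in WT CD4+ libraries, and 7.59, 5.37 and 5.82 CPM in KO CD4- and 3.56, 3.73 and 4.59 CPM in WT CD4- libraries. The KO values lay above the WT values in both, and both were called (log2 fold change 0.66 and 0.66, SE 0.21 and 0.21, adjusted p = 0.021 and 0.0245, edgeR's quasi-likelihood test), though each call was lost in 3 of 6 fits without 1 library. In CD8+ cells Cox6b2 had 1.76, 1.67 and 1.69 CPM in KO and 2.62, 1.72 and 1.81 CPM in WT (log2 fold change -0.26, adjusted p = 0.506, and 0.571 without KO library 3). Cox7a1, of heart and muscle, stayed at 0 to 0.782 CPM over the 18 libraries, and Cox4i2 and Ndufa4l2, both known from low oxygen, at 0 to 0.138 CPM.

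**Figure D3:**
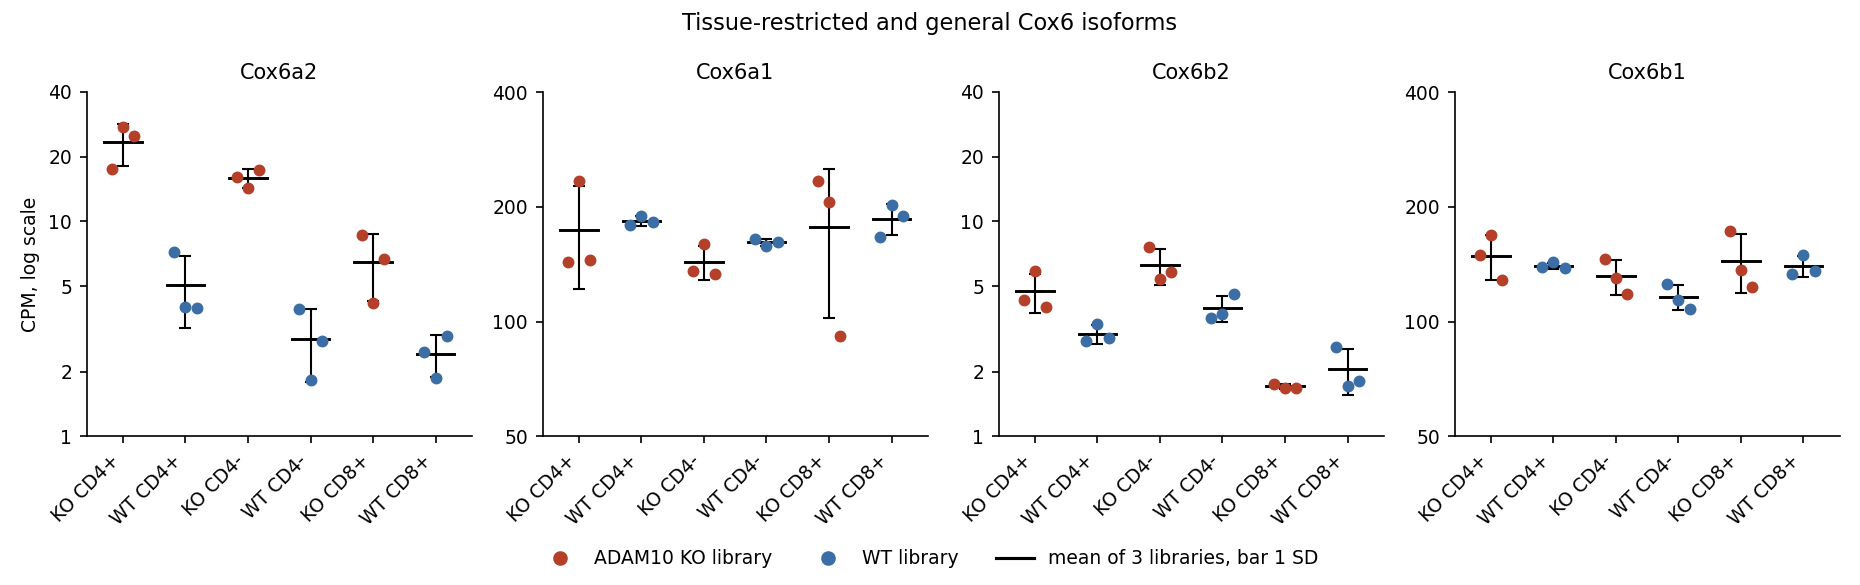
CPM on a log axis of Cox6a2, Cox6a1, Cox6b2 and Cox6b1 in each library, KO left of WT within each population. Cox6a2 lies between 4.18 and 27.4 CPM in KO and between 1.83 and 7.19 CPM in WT libraries, while Cox6a1 overlaps between genotypes in each population.

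For the ATP synthase, 0 of 5 F1 genes were called in KO CD4+ and KO CD4- cells. Atp5c1, the gamma subunit that turns within the F1 head, had 409, 356 and 328 CPM in KO CD8+ libraries, against 304, 297 and 280 CPM in WT CD8+ libraries, with no overlap (log2 fold change 0.31, SE 0.097, adjusted p = 0.0387, edgeR's quasi-likelihood test). That call was kept in 1 of 6 fits without 1 library, the fit without KO library 3 (0.38, adjusted p = 0.018). The alpha and beta subunits Atp5a1 and Atp5b were not called, with log2 fold changes of -0.043, 0.059 and -0.10 for Atp5a1 and -0.19, -0.10 and -0.062 for Atp5b in CD4+, CD4- and CD8+ cells.

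Of the 13 Fo, stalk and supernumerary genes, Atp5l and Atp5o rose in both cDC2 populations. Atp5l, subunit g, had 84.7, 95.1 and 86.3 CPM in KO CD4- libraries, against 70.9, 66.1 and 63.3 CPM in WT CD4- libraries (log2 fold change 0.41, SE 0.12, adjusted p = 0.0155, edgeR's quasi-likelihood test), and its log2 fold change in CD4+ cells was 0.34 (adjusted p = 0.0313). Atp5o, the stalk protein that confers oligomycin sensitivity, averaged 136 CPM in KO CD4+ and 109 CPM in WT CD4+ cells, and 141 CPM in KO CD4- and 112 CPM in WT CD4- cells (log2 fold change 0.32 and 0.34, adjusted p = 0.0376 and 0.0414). Atp5g2, one of the genes for the rotating subunit c, had 113, 101 and 97.3 CPM in KO CD4- libraries, against 85.1, 78.1 and 69.7 CPM in WT CD4- libraries (log2 fold change 0.42, SE 0.11, adjusted p = 0.0118). These rises were of at most 1.33-fold, and all of them were lost on the TPM scale. Of the 6 fits without 1 library, the Atp5l call was kept in 1 in CD4+ and in 3 in CD4- cells, the Atp5o call in 2 in CD4+ and in 0 in CD4- cells, and the Atp5g2 call in 4. A second identifier under the symbol Atp5o went the other way in CD4+ cells, at 6.06 CPM in KO and 10.1 CPM in WT (log2 fold change -0.73, adjusted p = 0.0422, kept in 2 of 6 such fits), and how reads were divided between the identifiers is not known.

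The KO effect differed between populations for few members. Between CD4+ and CD8+ cells 3 of 86 differed (3.49%, against 22.1% of all genes, edgeR's quasi-likelihood test of the interaction). The KO effect on Cox7a2l was lower in CD4+ than in CD8+ cells by -0.48 on the log2 scale (SE 0.10, adjusted p = 0.00286) and lower than in CD4- cells by -0.43 (SE 0.10, adjusted p = 0.0283), the 1 member that differed between CD4+ and CD4- cells (1.16%, against 3.76% of all genes in either direction and 1.28% lower). Cox6b2 differed by 0.92 between CD4+ and CD8+ cells (SE 0.31, adjusted p = 0.0419). Ndufaf6, a factor of early complex I assembly, differed by -0.71 (SE 0.24, adjusted p = 0.0419), with 2.65, 3.42 and 2.22 CPM in KO CD4+, 14.2, 12.1 and 10.8 CPM in KO CD8+, 2.84, 3.65 and 3.47 CPM in WT CD4+, and 9.37, 9.59 and 8.08 CPM in WT CD8+ libraries. On log2(TPM + 1) the Ndufaf6 value had the opposite sign, 0.20 (limma, adjusted p = 0.904). Between CD4- and CD8+ cells 0 members differed by edgeR's test (against 13.2% of all genes in either direction, 8.24% higher and 4.92% lower) and 0 by DESeq2, and 8 had an unadjusted p under 0.05. For Cox6a2 the difference of the KO effects was 0.79 between CD4+ and CD8+ cells (adjusted p = 0.226) and 1.04 between CD4- and CD8+ cells (adjusted p = 0.148), neither of which was called.

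These counts also rested on single libraries. Between CD4+ and CD8+ cells 14 members differed without KO CD8+ library 3, 5 without KO CD4+ library 1, and 1 without WT CD4+ library 3 or KO CD8+ library 2. Between CD4- and CD8+ cells 5 differed without KO CD8+ library 1 and 4 without KO CD8+ library 3. Between CD4+ and CD4- cells 0 differed without WT CD4+ library 1 or 2, KO CD4+ library 2, WT CD4- library 2 or 3, or KO CD4- library 2 or 3.

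In WT mice, the members called between cDC2 and CD8+ cDC1 were mostly lower in cDC2. The share of members called lower exceeded that of all genes in CD4- cells only. In WT CD4- against WT CD8+ cells 3 were higher and 31 lower (39.5% called, against 42.9% of all genes), so that 36% of the members were lower, against 21% of all genes. In WT CD4+ against WT CD8+ cells 5 were higher and 17 lower (25.6% called, against 45.6% of all genes in either direction). Here 19.8% of the members were lower, against 23% of all genes. Between WT CD4+ and WT CD4- cells 3 were higher and 0 lower (3.49%, against 16.7% of all genes in either direction, 7.12% higher and 9.63% lower, edgeR's quasi-likelihood test). DESeq2 also called 0 lower there, and 19 members had an unadjusted p under 0.05. The members' median log2 difference was -0.24 for WT CD4- minus WT CD8+, -0.11 for WT CD4+ minus WT CD8+ and 0.13 for WT CD4+ minus WT CD4-, while that of all genes was -0.0048, 3.5e-05 and 0.024. Relative to all genes these medians kept their sign under every scaling tried, at -0.238, -0.11 and 0.11 on TMM-scaled counts, -0.147, -0.113 and 0.0596 on log2(TPM + 1), and -0.125, -0.0699 and 0.03 with an offset for gene length. The WT CD4+ and WT CD4- comparisons share the WT CD8+ libraries. WT CD4- libraries carried 183 to 477 CPM of NK markers and 54.8 to 138 CPM of T cell markers, against 4.84 to 44.4 and 4.16 to 17.2 CPM in WT CD8+ libraries, and their part in the difference was not tested.

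The lower members came from every complex, but not evenly, and 21% of all genes were lower in WT CD4- than in WT CD8+ cells. Of the F1 genes of the ATP synthase 4 of 5 were lower in WT CD4- than in WT CD8+ cells, as were 6 of 13 Fo, stalk and supernumerary genes, 4 of 8 complex III genes, 5 of 13 general complex IV genes, 10 of 30 accessory and 1 of 7 core subunits of complex I, and 1 of 8 assembly factors. The core subunits and the assembly factors thus lay below the share of all genes, and 1 assembly factor was higher. Atp5g3, another gene for subunit c, had 143, 154 and 144 CPM in WT CD4+ libraries, 163, 139 and 140 CPM in WT CD4- libraries, and 250, 239 and 210 CPM in WT CD8+ libraries (log2 difference -0.66 for either cDC2 population, adjusted p = 8e-05 for CD4+ and 0.000103 for CD4-, edgeR's quasi-likelihood test). The WT CD8+ libraries were the 3 highest, as they were for each gene that follows. Ndufb11, an X-linked accessory subunit of complex I, had 112, 118 and 113 CPM in WT CD4+, 132, 110 and 109 CPM in WT CD4-, and 217, 206 and 180 CPM in WT CD8+ libraries (log2 difference -0.81 and -0.78). Uqcrb, which lies near the ubiquinone site of complex III, had 54.6, 64.8 and 53.6 CPM in WT CD4+, 57.3, 55.4 and 49.1 CPM in WT CD4-, and 89.6, 99.2 and 83.3 CPM in WT CD8+ libraries (-0.65 and -0.75).

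Ndufaf6 had the largest such difference, with the values given above for WT CD4+ and WT CD8+ libraries and 3.20, 3.51 and 4.21 CPM in WT CD4- libraries (log2 difference -1.44 and -1.31). Atp5md, a small subunit of the Fo part, had 36.4, 39.9 and 39.7 CPM in WT CD4+, 38.9, 38.2 and 35.7 CPM in WT CD4-, and 63.6, 59.4 and 58.9 CPM in WT CD8+ libraries (-0.65 and -0.69). Ndufa12, of the peripheral arm of complex I, and Uqcr11, a small subunit of complex III, were lower by -0.63 and -0.52 in WT CD4+ and by -0.82 and -0.66 in WT CD4- cells. The catalytic subunit Atp5b averaged 804 CPM in WT CD4- and 1054 CPM in WT CD8+ cells (log2 difference -0.39, adjusted p = 0.000781), but on log2(TPM + 1) its difference was 0.16 (limma, adjusted p = 0.534). On that scale 11 rather than 31 members were lower in WT CD4- cells. On TMM-scaled counts (edgeR) 19 were lower without WT CD4- library 3.

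A few members went the other way. Ndufaf7 was higher in WT CD4+ and WT CD4- than in WT CD8+ cells (log2 difference 0.54 and 0.28, adjusted p = 0.000608 and 0.0477, edgeR's quasi-likelihood test). Cox7a2l was higher in WT CD4+ than in WT CD8+ (0.42, adjusted p = 2e-04) and in WT CD4- cells (0.44, adjusted p = 0.000499), and Uqcrh was higher in WT CD4+ than in WT CD8+ cells (0.33). Cox6a2 averaged 5.05 CPM in WT CD4+ and 2.43 CPM in WT CD8+ cells (log2 difference 1.05, adjusted p = 0.0144), and Cox6b2 averaged 3.96 CPM in WT CD4- and 2.05 CPM in WT CD8+ cells (0.95, adjusted p = 0.00213). The second Atp5o identifier was higher in both cDC2 populations (1.78 and 1.17). Cox6c2 and Cox7c completed the 3 members higher in WT CD4+ than in WT CD4- cells (0.40 and 0.33), and 1 of those 3 was called without WT CD4+ library 1 or 2 or WT CD4- library 2 or 3.

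**Figure D4:**
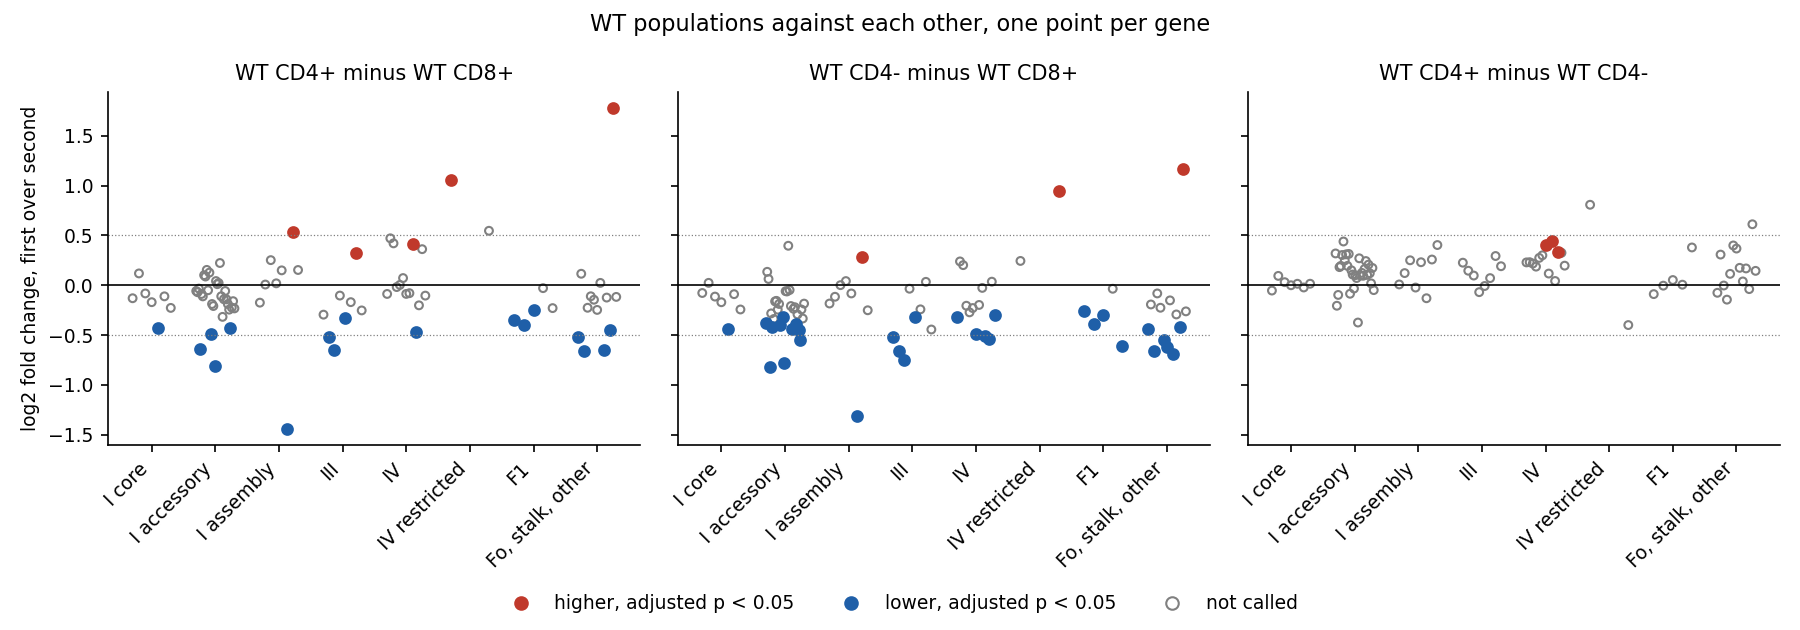
Log2 difference between WT populations for each tested member (vertical axis), by role in columns, with filled points for called members. Against WT CD8+ cells 17 members are called lower and 5 higher in WT CD4+ and 31 lower and 3 higher in WT CD4- cells, down to -1.44 for Ndufaf6, and the differences between WT CD4+ and WT CD4- cells centre near 0.13.

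Promoters were compared because nuclear respiratory genes are known to share sites for NRF1, for ETS-family factors such as GABP, and for YY1. RefSeq promoters of GRCm38.p6, from 250 bases before to 50 after the start, matched 71 of the 90 symbols. Both strands were searched for GCATGCGC (NRF1), CCGGAAG (ETS) and AAGATGGC (YY1), of which the last pair can overlap by the letters AAG. GCATGCGC was found in 11 members (15.5%), against 3.05% of 27025 genes with a promoter, CCGGAAG in 17 (23.9%, against 9.93%), and AAGATGGC in 11 (15.5%, against 3.19%). At least 1 of the 3 was found in 33 members (46.5%) and in 14.9% of all genes. A match is a run of letters and not a measured site. The promoters shown are those of a gene that was lower in WT cDC2 (Uqcr11), of 2 genes that rose in KO CD4- cells (Ndufa6, Atp5g2), and of Cox7a2l, where none of the 3 motifs was found. Capitals mark the matches, and in Atp5g2 they hold 2 overlapping matches of GCATGCGC on opposite strands. Their positions are chr10:80406772-80407071, chr15:82354242-82354541, chr15:102670998-102671297 and chr17:83514284-83514583, all on the minus strand and printed 5′ to 3′ along the gene.
Uqcr11: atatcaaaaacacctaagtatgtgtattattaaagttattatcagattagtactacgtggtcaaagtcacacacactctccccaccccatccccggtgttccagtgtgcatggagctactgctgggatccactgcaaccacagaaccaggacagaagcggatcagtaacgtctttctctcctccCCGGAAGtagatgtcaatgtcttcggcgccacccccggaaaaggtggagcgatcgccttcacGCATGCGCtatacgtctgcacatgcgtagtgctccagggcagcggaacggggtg
Ndufa6: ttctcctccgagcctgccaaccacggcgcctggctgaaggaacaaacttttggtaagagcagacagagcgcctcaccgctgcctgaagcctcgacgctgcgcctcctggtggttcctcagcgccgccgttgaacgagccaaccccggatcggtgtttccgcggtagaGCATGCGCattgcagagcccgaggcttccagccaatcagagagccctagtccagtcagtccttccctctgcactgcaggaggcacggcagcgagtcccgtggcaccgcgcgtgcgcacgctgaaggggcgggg
Atp5g2: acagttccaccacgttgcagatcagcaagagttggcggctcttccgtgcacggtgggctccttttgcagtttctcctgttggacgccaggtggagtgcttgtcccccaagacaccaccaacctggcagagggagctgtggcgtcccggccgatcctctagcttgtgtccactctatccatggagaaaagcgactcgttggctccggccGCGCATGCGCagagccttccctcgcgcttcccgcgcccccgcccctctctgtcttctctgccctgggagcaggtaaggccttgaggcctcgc
Cox7a2l: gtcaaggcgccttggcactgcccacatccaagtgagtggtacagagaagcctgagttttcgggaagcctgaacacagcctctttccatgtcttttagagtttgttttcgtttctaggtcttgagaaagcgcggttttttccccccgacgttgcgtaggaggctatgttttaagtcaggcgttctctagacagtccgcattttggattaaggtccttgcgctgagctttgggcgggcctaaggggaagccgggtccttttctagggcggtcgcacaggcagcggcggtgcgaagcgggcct

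Other genes of the pathway, outside the symbol rule, were counted beside the members. Over all genes, 18.5% rose and 16.6% fell in KO CD4+, 14.6% and 11.3% in KO CD4-, and 6.99% and 8.67% in KO CD8+ cells. The lists are short, and their counts are given for description. Of the 4 genes of complex II, 2 electron carriers and 6 carriers and channels, 0 were called in any KO comparison. Of 13 mitochondrially encoded genes, mt-Co1 was called higher in KO CD4- cells (log2 fold change 0.53, adjusted p = 0.0236, edgeR's quasi-likelihood test), and 0 were called in CD4+ or CD8+ cells. Of 30 assembly factors outside the rule, 2 rose and 2 fell in KO CD4+, 1 rose and 3 fell in KO CD4-, and 1 rose and 2 fell in KO CD8+ cells. Surf1, needed for assembly of complex IV, rose in all 3 populations (0.25, 0.26 and 0.31, adjusted p = 0.0141, 0.018 and 0.00895), and Sdhaf4, an assembly factor of complex II, fell in all 3 (-0.37, -0.46 and -0.56, adjusted p = 0.0392, 0.0195 and 0.00716). Of 13 regulators, 2 rose and 1 fell in KO CD4+, 2 rose and 1 fell in KO CD4-, and 1 rose and 2 fell in KO CD8+ cells. Myc, a growth regulator, rose in all 3 populations (0.76, 0.44 and 0.94, adjusted p = 8.36e-05, 0.00998 and 3.96e-05), and the coactivator gene Ppargc1b rose in KO CD4+ and KO CD4- cells (2.90 and 1.86, adjusted p = 0.000102 and 0.00512). Nrf1, Yy1 and Tfam were among the regulators not called in a KO comparison, and Gabpa fell in KO CD4+ (-0.31), Ppargc1a in KO CD4- (-3.85), and Esrra and Gabpb1 in KO CD8+ cells (-0.36 and -0.26). These genes were tested on TMM-scaled counts only. In WT, genes of these lists were called in both directions. Against WT CD8+ cells, 22.6% of all genes were higher and 23% lower in WT CD4+, and 21.9% and 21% in WT CD4- cells. Against WT CD8+ cells, 0 were higher and 1 lower of 4 complex II genes in WT CD4+ cells, and 0 and 2 in WT CD4- cells. Of 2 electron carriers 1 was lower in each, Cycs, the gene of cytochrome c (-0.63 in WT CD4+ and -0.49 in WT CD4- cells, adjusted p = 0.000119 and 0.00117). Sdhb of complex II was lower in both (-0.40 and -0.31). Of 6 carriers and channels 0 were higher and 3 lower in WT CD4+ and 5 lower in WT CD4- cells, with the channel gene Vdac2 at -0.53 and -0.68. Of 30 assembly factors 2 were higher and 4 lower in WT CD4+ cells (higher: Foxred1 and Sdhaf1), and 2 higher and 5 lower in WT CD4- cells (higher: Lyrm7 and Sdhaf1). Of 13 mitochondrially encoded genes mt-Nd2 was higher and 0 were lower in WT CD4+ cells, and 0 were higher and mt-Co3 was lower in WT CD4- cells. Of 13 regulators 3 were higher (Gabpb1, Hif1a and Ppargc1a) and 1 lower (Polrmt) in WT CD4+ cells, and 6 were higher (Gabpa, Gabpb1, Myc, Ppargc1a, Tfam and Yy1) and 0 lower in WT CD4- cells.

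Members also differed in how closely replicates lay together, and KO CD8+ cells spread most. The genes in this paragraph were chosen after their values were seen. Ndufaf8, which acts with another factor in early complex I assembly, had 23.6, 20.4 and 6.04 CPM in KO CD8+ libraries, against 14.4, 21.5 and 20.02 CPM in WT CD8+ libraries (SD on the log2 scale 1.03 in KO CD8+ and 0.299 in WT CD8+ cells). Cox5b, a zinc-binding subunit of complex IV, had 122, 96.1 and 47.5 CPM in KO CD8+ and 49.5, 78.2 and 87.0 CPM in WT CD8+ libraries. In each of these genes KO CD8+ library 3 was the lowest of its group, as it was for Ndufb2 (14.5 CPM, against 50.1 and 37.2 in the other KO CD8+ libraries), Cox8a (89.9 CPM, against 215 and 192) and Cox6a1 (91.9 CPM, against 234 and 206). The members are short, with a median length of 567 bases, against 1712 over the tested genes. Shorter genes relative to longer ones (500 against 2000 bases, on the log2 scale) stood at 0.236 and 0.13 in KO CD8+ libraries 1 and 2 and at -0.0283 in library 3, against 0.00539 to 0.0827 in WT CD8+ libraries. The same value was -0.177 to -0.039 in WT CD4- and -0.00789 to 0.018 in KO CD4- libraries. With an offset for gene length, the members' median relative to all genes was 0.0345 in KO minus WT CD4- cells, against 0.12 without it. In KO minus WT CD8+ cells that median was 7e-05, against 0.0634 without the offset, and in CD4+ cells -0.0215, against 0.00989. For WT CD4- minus WT CD8+ cells it was -0.125 with the offset, against -0.238. Whether length accounts for the low values of KO CD8+ library 3 was not tested.

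**Figure D5:**
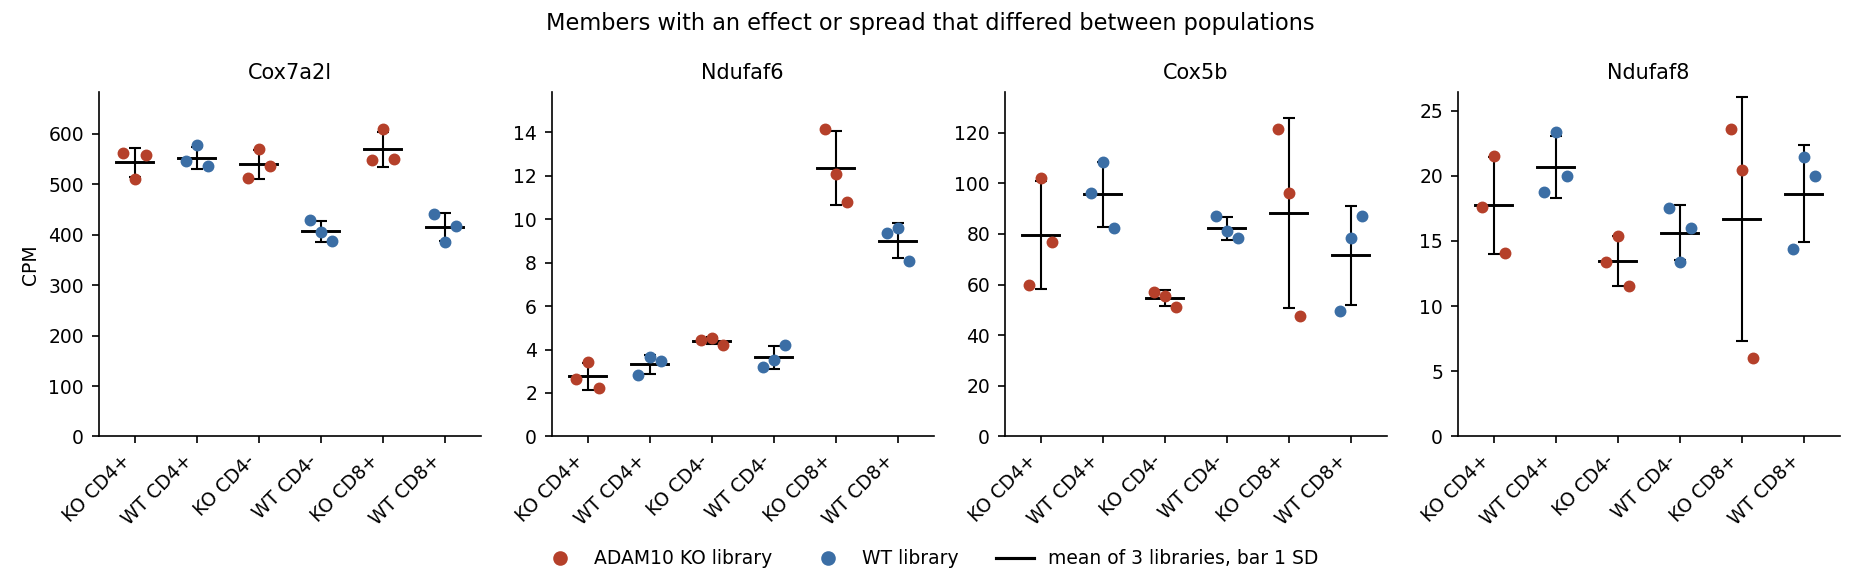
CPM of Cox7a2l, Ndufaf6, Cox5b and Ndufaf8 in each library, KO left of WT within each population, with 1 point per library and bars for the mean ± SD of 3 libraries. Cox7a2l lies lower in WT CD4- and WT CD8+ libraries (386 to 441 CPM) than in the other groups, Ndufaf6 is highest in CD8+ libraries of both genotypes, and Cox5b and Ndufaf8 each have 1 low KO CD8+ library.

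Some members share sequence with a copy, and their counts depend on how Salmon divided the reads. Cox6c2, a processed pseudogene in the annotation, averaged 29.4 to 45.1 CPM over the groups, and its parent Cox6c averaged 84.5 to 118 CPM. Ndufb4c, another processed pseudogene, averaged 26.5 to 36.1 CPM, above its parent Ndufb4 at 6.43 to 8.48 CPM. The values of these 4 genes are uncertain for that reason, and they too were chosen after their values were seen.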

How the data were processed

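RNA from 18 sorted cDC libraries was sequenced as single reads of 59 bases after poly(A) selection, from 50 ng, per the labels' protocols. FastQC 0.11.8, Salmon 0.14.1 and the build GRCm38 are named in the submitters' processing notes. The authors deposited estimated counts per transcript (117135 transcripts), which Salmon divides among similar transcripts, and TPM per transcript (84086 transcripts), scaled within each library for length and total. Whether strand was used is not given in the sources used here.

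Transcripts were summed per gene (24614 genes). Counts were rounded to whole numbers, filtered with filterByExpr (13381 genes kept), scaled by TMM and tested with edgeR 4.0.16 under R 4.3.3 (quasi-likelihood F test, 1 mean per group over all 18 libraries, 12 residual degrees of freedom, two-sided, Benjamini-Hochberg adjustment over all genes). CPM use TMM-scaled library sizes. Standard errors come from the F statistics. Comparisons were KO minus WT in each population, the 3 interactions, and the 3 differences between WT populations. Alternatives used DESeq2 1.42.0, limma 3.58.1 on log2(TPM + 1) and log2(TPM + 0.1), no filter, a gene-length offset, other scalings, the replicate number as a block, only the compared groups, and each library left out. Pairs of libraries within a group differed by more than sampling noise (chi-square per gene 9.25 to 31.7), so none was counted as a duplicate. The test was checked on simulated counts.

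Members, gene lists and the rule for named genes were chosen with earlier results of these data known. The rule names the tissue-restricted isoforms, Ndufa4, 9 fixed genes, up to 6 called members per direction and comparison (mean of at least 5 CPM in the higher group, no overlap between the groups' libraries) and members called in all 3 KO comparisons. Atp5if1, one of the 9, was not among the member symbols, and Ndufb10, Ndufs8, Atp5o and Cox7a2l in KO CD4- and Ndufa6 in KO CD8+ cells fall outside the rule and were chosen after their values were seen. Sequences come from RefSeq tables (GRCm38.p6) and from GENCODE transcripts; the alignment used Biopython 1.88. No promoter was matched for Atp5a1, Atp5mpl, Ndufa11b, Ndufa2, Ndufb4c, Ndufb9, Ndufs6b, Ndufaf6, Ndufs1, Uqcrb, Uqcrc2, Uqcrq, Cox4i1, Cox6c, Cox6c2, Cox4i2, Cox6a2 and Ndufa4l2, among others. A member gene is not reported by name here.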

Additional observations from a re-analysis of the deposited data

Results flagged for a closer look

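The KO effect differed between populations, by a test of the difference itself (edgeR's quasi-likelihood test of the interaction), for 3 members. For Cox7a2l the effect in CD4+ minus that in CD8+ cells was -0.4832 on the log2 scale (SE 0.1045, adjusted p = 0.00286), and the effect in CD4+ minus that in CD4- cells was -0.4325 (SE 0.1044, adjusted p = 0.0283). The first of these kept its call in all 12 fits without 1 library, and the second in 5 of 12. For Cox6b2 the effect in CD4+ minus that in CD8+ cells was 0.9205 (SE 0.3093, adjusted p = 0.0419), at levels of 1.67 to 5.87 CPM, and the call was kept in 5 of 12 such fits. For Ndufaf6 it was -0.7102 (SE 0.2386, adjusted p = 0.0419), kept in 3 of 12. None of the 3 was called on the TPM scale.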

How the results depend on the processing

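Cox6a2 in all 3 KO comparisons and Ndufaf7 in KO CD4+ cells kept their calls under every alternative and without any 1 library. Of 88 called member values, 38 kept their call in every alternative and 32 also without any 1 library. Among called member values, signs changed on TPM alone, for Ndufs8 in KO CD4- cells (-0.04385 with a pseudocount of 1 and -0.04436 with 0.1), the Ndufaf6 interaction of CD4+ and CD8+ cells (0.2023 and 0.2652) and Atp5b in WT CD4- minus WT CD8+ cells (0.1598 and 0.1599).

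Counts of called members moved as follows, and the cause was not tested. With limma on log2(TPM + 1) and on log2(TPM + 0.1), 1 and 1 members rose in each KO population, and 12 and 11 fell in KO CD4+, 16 and 15 in KO CD4-, and 4 and 4 in KO CD8+ cells. On these scales the interactions held 1 and 1 members (CD4+ and CD8+), 1 with the pseudocount of 1 (CD4- and CD8+), and 0 and 0 (CD4+ and CD4-). WT CD4- against WT CD8+ cells had 5 and 5 higher and 11 and 11 lower, and WT CD4+ against WT CD4- cells 0 and 0 higher and 4 and 4 lower. With the gene-length offset 11 fell in KO CD4+ and 4 in KO CD4- cells, the interactions of CD4- and CD8+ and of CD4+ and CD4- cells held 1 and 0, and 9 were higher in WT CD4+ and 5 in WT CD4- than in WT CD8+ cells, and 2 lower in WT CD4+ than in WT CD4- cells. Without the filter 2 rose in KO CD4+, and 6 rose and 1 fell in KO CD4- cells, and the interactions held 1, 1 and 0. With the compared groups only, 3 fell in KO CD4- and 2 rose in KO CD8+ cells, 1 interaction of CD4+ and CD8+ cells remained in the count, and WT CD4+ against WT CD4- cells had 11 higher and 1 lower. With DESeq2's Wald test 8 fell in KO CD4+ cells, and 5 were higher in WT CD4+ than in WT CD4- cells.

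Same-numbered KO and WT libraries did not deviate together (correlation of their deviations -0.0466 to 0.15), so the numbers were not taken as pairs there. Across populations of 1 genotype, all 9 same-numbered KO pairs and all 9 WT pairs correlated best with their own number, at 0.0575 to 0.262 in KO and 0.0544 to 0.201 in WT, which is a hint of pairing from the data and not from the labels. The correlation was over 0.1 in 8 KO and 4 WT pairs, not in all, and the WT differences and the interactions were not blocked either. If same-numbered libraries of a genotype belong together, these tests left that pairing out. The replicate block shared each number between KO and WT libraries, which did not deviate together, so it is not the pairing hinted at. A block within each genotype was not fitted. With the replicate block 7 rose and 9 fell in KO CD4+, 14 rose in KO CD4- and 8 in KO CD8+ cells, the interactions of CD4+ and CD8+ and of CD4- and CD8+ cells held 5 and 1, 10 were higher in WT CD4+ than in WT CD4- cells, and 41 were lower in WT CD4- than in WT CD8+ cells.

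Leaving out 1 library at a time gave 1 to 10 rises and 2 to 5 falls in KO CD4+, 4 to 8 rises in KO CD4-, and 2 to 14 rises in KO CD8+ cells, with 0 to 0 falls in the last pair. The interactions held 1 to 14 (CD4+ and CD8+), 0 to 5 (CD4- and CD8+) and 0 to 1 (CD4+ and CD4-). In WT, 4 to 6 were higher and 14 to 19 lower in CD4+ than in CD8+, 2 to 3 higher and 19 to 30 lower in CD4- than in CD8+, and 1 to 4 higher in CD4+ than in CD4- cells.

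Depth limits the rarest members most, since Cox7a1, Cox4i2 and Ndufa4l2 stayed below 1 CPM in every library and changes in them could not be measured.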
